A study of Mus musculus with 12 samples.

Results

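The imprinted growth genes are 9 mouse genes that are expressed mainly from the copy inherited from 1 parent and have been linked to stem cell quiescence: H19, Igf2, Meg3, Dlk1, Peg3, Plagl1, Ndn, Grb10 and Mest. They were chosen by name. Of the 9, 8 have a row among the 18546 genes of the deposited expression table, and Mest was not analysed here. The RNA came from bone marrow hematopoietic stem cells (HSCs) of C57BL/6 mice in postnatal weeks 10 to 12, sorted as CD150+CD48-Lin-Sca1+cKit+ cells (the SLAM gate). The groups were double mutants (NrasG12D/+;Tet2+/-), Nras mutants (NrasG12D/+), Tet2 mutants (Tet2+/-) and wild type, with 3 libraries each. NrasG12D encodes a Ras protein that stays in its active form, and Tet2+/- mice carry 1 working copy of an enzyme that oxidises methylated cytosine. The driver that switched the Nras allele on, and whether each library came from a separate mouse, are not given in the sources used here. The p-values below therefore measure the spread between these libraries, which may be technical. From Xist and Y-linked reads, replicate 1 of each group was male, as was replicate 3 of the Tet2 mutants, and the other libraries were female.

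Imprinted genes carry parental marks, mostly DNA methylation at CpG sites, that silence 1 of the 2 copies, and many of them set fetal and stem cell growth. At the H19 domain the maternal chromosome makes the long noncoding RNA H19 and the paternal chromosome makes the growth factor Igf2. In mouse HSCs the maternal H19 domain restrains Igf2 signalling through the receptor Igf1r and helps to keep the cells out of cycle. At the Dlk1 domain the maternal chromosome makes the noncoding RNAs Meg3, Rian and Mirg, which share their region with many microRNAs, and the paternal chromosome makes the membrane protein Dlk1 and Rtl1. The RNA libraries do not separate the parental copies, so a level is the sum of both.

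The microRNAs below belong to the noncoding RNAs of both domains and are shown because reads of their hairpins enter the results. MiR-675 is cut from an exon of H19, so its hairpin shares the reads of H19. The others come from the Dlk1 domain on chromosome 12, where 4 of the 57 hairpins in RefSeq (GRCm38.p6) have a row of their own in the expression table. The mature forms are shown 5′ to 3′ with the seed, bases 2 to 8, in capitals. No pair of them shares a seed.
miR-675-5p: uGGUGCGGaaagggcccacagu
miR-675-3p: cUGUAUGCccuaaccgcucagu
miR-127-3p: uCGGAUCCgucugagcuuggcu
miR-433-3p: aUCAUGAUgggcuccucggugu
miR-136-5p: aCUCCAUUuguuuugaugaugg
miR-1188-5p: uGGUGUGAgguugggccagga

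For Meg3 and Grb10, 1 start region each is shown because results below turn on both genes. Meg3 was lower in every double-mutant library than in every wild-type library, and Grb10 was the member that varied least between libraries. Each window holds 250 bases before the start and 50 after it on the gene's strand (RefSeq, GRCm38.p6), with the CpG sites in capitals. The letters CG read the same on both strands, so 1 search covers both.
Meg3 (plus strand, chr12:109540746-109541045): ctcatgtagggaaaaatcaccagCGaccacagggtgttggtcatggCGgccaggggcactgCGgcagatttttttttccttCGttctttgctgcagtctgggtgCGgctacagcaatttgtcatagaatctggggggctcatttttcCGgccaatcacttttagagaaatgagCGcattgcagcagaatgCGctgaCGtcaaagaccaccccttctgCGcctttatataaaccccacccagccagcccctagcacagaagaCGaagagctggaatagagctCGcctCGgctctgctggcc
Grb10 (minus strand, chr11:12037371-12037670): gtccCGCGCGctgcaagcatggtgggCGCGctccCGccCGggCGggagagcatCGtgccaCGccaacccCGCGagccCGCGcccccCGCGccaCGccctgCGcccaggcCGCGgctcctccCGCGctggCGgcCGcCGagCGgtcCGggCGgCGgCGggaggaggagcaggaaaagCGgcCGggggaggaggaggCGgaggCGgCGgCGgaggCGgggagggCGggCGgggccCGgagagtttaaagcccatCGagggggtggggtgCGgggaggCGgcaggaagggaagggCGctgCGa
The Grb10 window held 45 CpG sites, and 1.93% of 32851 windows of that length held at least as many. The Meg3 window held 13, a count reached by 37.9% of windows, against a median of 7. A further start window of each gene, not shown, held 9 sites for Grb10 (reached by 45.8% of windows) and 1 for Meg3 (94.6%). In all, 7 of the 8 members matched a window. Methylation was not measured in these libraries.

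Depth was 19205045 to 36890942 reads in genes per library, recovered from the deposited log2 RPKM (reads per unit of gene length and of sequencing depth). Wild-type replicate 1 stood apart with 3824 genes at 0 reads, followed by Nras replicate 2 with 3268, and wild-type replicate 2 had the fewest, 1000. All 12 HSC markers reached 1 RPKM, and their summed level was 251 to 309 RPKM in Nras carriers (Nras and double mutants) and 264 to 307 RPKM in non-carriers (Tet2 mutants and wild type). Tet2 itself, read over the whole gene, was at 4.50 to 5.67 RPKM in double mutants, 4.83 to 7.03 RPKM in Nras mutants, 4.09 to 5.23 RPKM in Tet2 mutants and 4.93 to 4.98 RPKM in wild type. Those ranges overlapped, so this level does not check the labels. Nras was at 4.76 to 6.83 RPKM in carriers and 4.95 to 6.69 RPKM in non-carriers.

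Scaled to annotated exon length, Grb10 was the most abundant of the imprinted growth genes in these HSCs. The authors' RPKM used gene lengths that often exceeded the exons (by 7.11 times for Dlk1). Levels of different genes are therefore compared here after rescaling each to its annotated exon length. On that scale Grb10 averaged 20.03 ± 2.25 RPKM over the 12 libraries (SD), and its lowest library, at 15.98, was above the highest of any other member. Ndn followed at 5.16 ± 3.06 and Meg3 at 3.21 ± 3.25. The other members were scarce: H19 averaged 0.565 ± 0.896, Peg3 0.508 ± 0.430, Igf2 0.412 ± 0.516, Dlk1 0.188 ± 0.252 and Plagl1 0.0710 ± 0.103 RPKM. Below Grb10, each neighbour in this order overlapped the next over the 12 libraries. All levels that follow are on the authors' own RPKM scale or in reads.

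**Figure D1:**
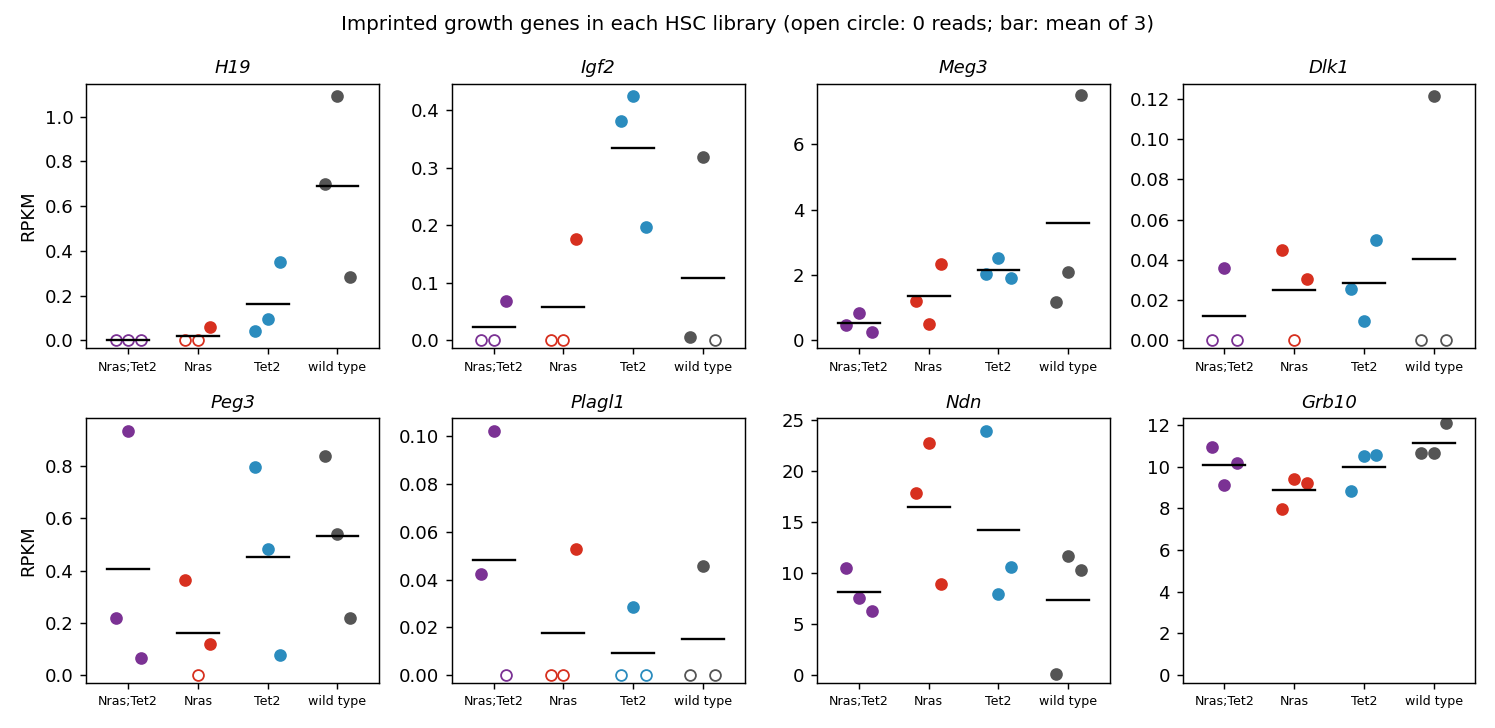
RPKM of the 8 imprinted growth genes in each of the 12 libraries, by genotype, with each panel on its own linear axis from 0. Filled points are libraries with reads, open points libraries at 0 reads, and bars are means of 3 libraries. H19 has open points only in the 2 genotypes with the Nras allele, where 5 of 6 libraries are at 0, and Grb10 lies between 7.995 and 12.1 RPKM throughout.

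H19 (ENSMUSG00000000031, chromosome 7, 142575529 to 142578143, minus strand, mm10) was the member whose reads followed the Nras allele most closely. The double-mutant libraries held 0, 0 and 0 H19 reads. The Nras libraries held 0, 0 and 14, the Tet2 libraries 9, 16 and 59, and the wild-type libraries 89, 173 and 62. All 6 non-carriers had reads, and 5 of the 6 carriers had none. A count of 0 allows up to 3 reads, here 0.0140 to 0.0224 RPKM in the double mutants, by counting error only. The mean level was 0 RPKM for double mutants, 0.0202 ± 0.0350 for Nras mutants, 0.163 ± 0.165 for Tet2 mutants and 0.692 ± 0.405 for wild type (SD, n = 3 each). Against wild type, mean H19 was at least 39.5-fold lower in double mutants (from the floor of 3 reads per library). In Nras mutants it was 34.3-fold lower, with no overlap in either case. Against Tet2 mutants mean H19 was at least 9.32-fold lower in double mutants, again without overlap. These bounds cover the counting error of 0 reads only. They leave out the spread of the wild-type (0.283 to 1.09 RPKM) and Tet2 libraries (0.0418 to 0.351 RPKM). Tet2 mutants averaged 4.24-fold below wild type, but those groups overlapped. In bulk RNA, fewer cells that make a transcript and less of it per cell cannot be told apart.

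An exact two-sided permutation test of the log2 level, 6 Nras carriers against 6 non-carriers, gave p = 0.00433 for H19, with a mean log2 difference of -6.67. The smallest p that this test can give is 0.00216. The 2 sides overlapped, since Nras replicate 3 had 14 reads and Tet2 replicate 1 had 9. Adjusted over all 18546 genes (Benjamini-Hochberg), that p was 0.322. H19 did not reach 1 RPKM in 3 libraries and so was not among the 15478 genes of the main limma fit. In limma without that minimum, the Nras allele's log2 difference was -6.67 ± 1.28 (SE), with an unadjusted p of 0.000345 and an adjusted p of 0.231. The same fit gave -8.78 for double mutants against wild type (adjusted p = 0.4997) and -6.95 for Nras mutants against wild type (adjusted p = 0.776). No fit called H19 changed after adjustment. These log2 differences depend on the small prior that the authors added to counts of 0, and with log2(RPKM + 0.5) the allele's difference was -0.76 with the permutation p at 0.00433.

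Few genes showed this on-off pattern. Only 9 of 18546 genes, 0.0485%, had 0 reads in at least 5 of the 6 Nras carriers together with reads in all 6 non-carriers, and 2 genes, 0.0108%, had the mirror pattern. That criterion was set after the H19 reads were seen, so it describes H19 and tests nothing. The number of genes without reads was 1073 to 3268 in carriers and 1000 to 3824 in non-carriers. Wild-type replicate 1, with the most, held 89 H19 reads, and wild-type replicate 2, with the fewest, held the most H19 reads, 173. The only carrier with H19 reads, Nras replicate 3, was the carrier with the fewest genes at 0, and Tet2 replicate 1, with the most in its group (2512), held the fewest in that group. The part of these missing genes in the result was not tested. Leaving out each library in turn kept the permutation p between 0.00216 and 0.00649, and leaving out both libraries with the most genes at 0 gave 0.0159. H19 shares its exon with the miR-675 hairpin, which has no row of its own.

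**Figure D2:**
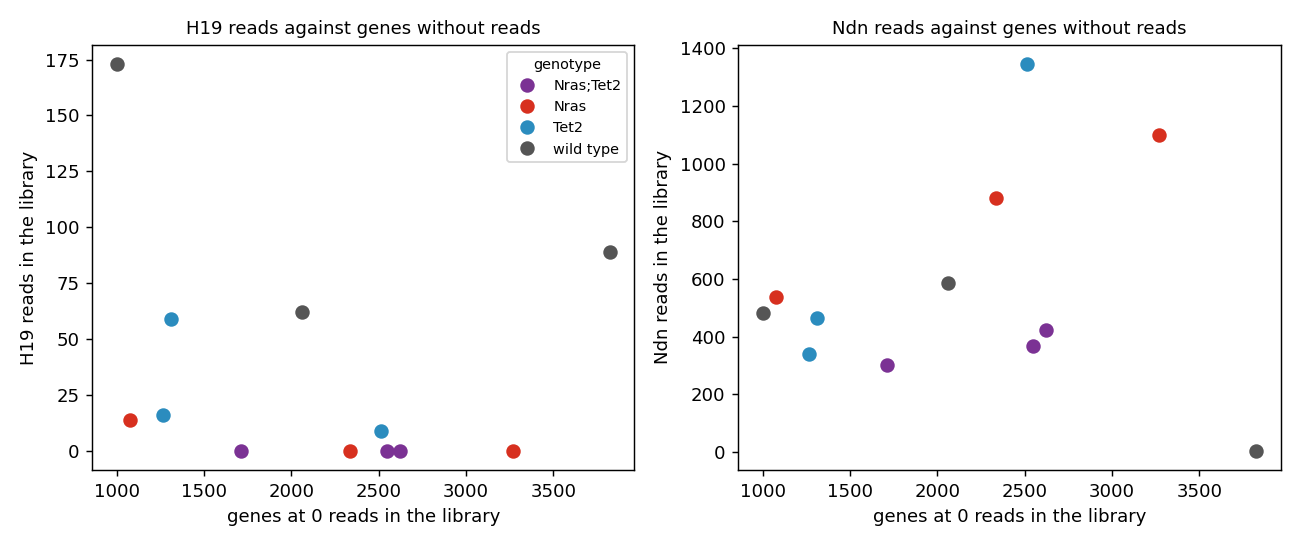
Reads of H19 (left) and Ndn (right) in each library, on the y axis, against the number of genes at 0 reads in that library, on the x axis, coloured by genotype. The wild-type library with 3824 genes at 0 reads holds 89 H19 reads but only 4 Ndn reads, and the 5 libraries without H19 reads all carry the Nras allele.

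Markers of other cell types were summed beside H19, and each sum overlapped between carriers and non-carriers. The summed level of 8 megakaryocyte markers was 49.3 to 82.0 RPKM in carriers and 31.9 to 53.9 RPKM in non-carriers. The 8 stroma and endothelium markers in the table (of 16) summed to 18.0 to 23.0 RPKM in carriers and 13.9 to 20.3 RPKM in non-carriers, ranging by median from Tek at 7.33 and Pecam1 at 5.66 RPKM, both read in every library, to Pdgfra at 0.00127 RPKM, with 4 libraries at 0. The 5 T and NK markers in the table (of 8) summed to 2.10 to 12.0 RPKM in carriers and 2.18 to 6.04 RPKM in non-carriers, ranging by median from Nkg7 at 2.16 and Lck at 1.03 RPKM to Cd8a, at 0 in 8 libraries. The 3 monocyte and macrophage markers in the table (of 8) summed to 76.9 to 110.0 RPKM in carriers and 84.5 to 110.1 RPKM in non-carriers. Their medians ran from Lyz2 at 95.8 to Csf1r at 0.00935 RPKM. Mature granulocyte markers summed to 0 to 6.59 RPKM in carriers and 0 to 8.60 in non-carriers. Erythroid markers summed to 4.46 to 25.2 and 5.21 to 21.3 RPKM, and B lineage markers to 3.69 to 7.90 and 3.05 to 6.68 RPKM. The part of these cells in the result was not tested.

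Igf2 (ENSMUSG00000048583, chromosome 7, 142650766 to 142666816, minus strand), the fetal growth factor beside H19, was read most evenly in Tet2 mutants. Double mutants held 0, 0 and 36 Igf2 reads and Nras mutants 0, 0 and 115. Tet2 mutants held 233, 198 and 94 reads, and wild type 2, 143 and 0. All 3 Tet2 libraries exceeded all 3 double-mutant libraries, a 14.6-fold lower mean in double mutants, while all groups overlapped wild type. In each genotype the highest Igf2 level was in the library with the fewest genes at 0 reads, which were double-mutant replicate 3 (1711 genes), Nras replicate 3 (1073), Tet2 replicate 2 (1265) and wild-type replicate 2 (1000). The part of this in the result was not tested. The limma log2 difference of double mutants from Tet2 mutants, without the RPKM minimum, was -6.98 with an unadjusted p of 0.0482 and an adjusted p of 0.908. For the Nras allele the mean log2 difference was -4.24 and the exact permutation p was 0.0909. Without Nras replicate 3 that p was 0.0476, and without wild-type replicate 3 it was 0.0303. Igf2 overlaps the antisense gene Igf2os, and H19, Meg3, Plagl1 and Ndn also overlap annotated antisense genes. Whether reads were counted by strand is not given in the sources used here.

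H19 and Igf2 share enhancers. Over the 7 libraries with H19 reads, Pearson's r of the log2 levels was -0.34 (permutation p = 0.459) and Spearman's rho was -0.29 (permutation p = 0.556). The adjusted p over 2 such pairs was 0.590 for Pearson's r, and without the 2 libraries farthest from the median of H19 it was -0.09. Those 7 were chosen by H19 reads alone. Among them wild-type replicate 3 held 0 Igf2 reads and wild-type replicate 1 held 2, so this r still mixes counts of 0 with reads. Libraries at 0 reads and libraries with reads form separate clusters. Over all 12 libraries, the set planned, Pearson's r had the opposite sign, at 0.54 (permutation p = 0.0723). With genotype means subtracted it was 0.66 (permutation p = 0.0176). Of the receptors, Igf1r, which carries the growth signal of Igf2, was abundant at 71.3 ± 9.18 RPKM in carriers and 71.3 ± 8.95 RPKM in non-carriers (SD, n = 6 each). Igf2r, an imprinted receptor that clears Igf2 from the cell surface, was at 6.01 to 10.2 RPKM in carriers and 10.4 to 13.9 RPKM in non-carriers, with no overlap. Its log2 difference for the Nras allele was -0.64 ± 0.15 (SE), with an unadjusted limma p of 0.00151 and an adjusted p of 0.303. Of all 18546 genes, 0.35% were lower in every carrier than in every non-carrier.

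Meg3 (ENSMUSG00000021268, chromosome 12, 109541001 to 109571726, plus strand), the maternal noncoding RNA that in mouse HSCs is tied to long-term stem cell function, was lowest in double mutants. It was at 0.469, 0.838 and 0.256 RPKM in double mutants and at 1.22, 0.497 and 2.34 RPKM in Nras mutants. Tet2 mutants had 2.02, 2.51 and 1.92 RPKM, and wild type had 1.17, 2.10 and 7.49 RPKM. All double-mutant libraries were below all wild-type and all Tet2 libraries, whereas Nras mutants overlapped both. The highest value, wild-type replicate 3, rested on 7907 reads and the lowest on 228, so counting error is small beside the spread between libraries.

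Double mutants averaged 0.521 ± 0.294 RPKM of Meg3 and wild type 3.59 ± 3.42 RPKM (SD, n = 3 each), a mean 6.88-fold lower. In limma the log2 difference was -2.50 with a 95% interval of -4.28 to -0.73, an unadjusted p of 0.0104 and an adjusted p of 0.754. With 1 library left out at a time it lay between -3.09 and -1.75. Against Tet2 mutants (2.15 ± 0.315 RPKM) the double mutants' difference was -2.20, with an unadjusted p of 0.0201 and an adjusted p of 0.826. Nras mutants differed from wild type by -1.23 (interval -3.01 to 0.54, adjusted p = 0.870) and Tet2 mutants by -0.30 (interval -2.08 to 1.47, adjusted p = 1.0). Across the Nras allele, carriers averaged 0.936 ± 0.765 RPKM and non-carriers 2.87 ± 2.31 RPKM (SD, n = 6 each). That log2 difference was -1.72 ± 0.56 (SE), with an exact permutation p of 0.0195, or 0.492 adjusted over all genes, and an adjusted limma p of 0.511. The interaction of both alleles on Meg3 was -0.96 with an interval of -3.47 to 1.55, so these data do not tell a joint effect from the sum of the 2 alleles.

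The genotype means of the other maternal RNAs of the domain, Rian and Mirg, had the same order as those of Meg3, with wide overlap. Rian, which hosts small nucleolar RNAs, was at 0.170, 0.632 and 0.120 RPKM in double mutants and 0.495, 0.111 and 0.716 RPKM in Nras mutants. It was at 0.939, 0.513 and 0.547 RPKM in Tet2 mutants and 0.404, 0.669 and 2.71 RPKM in wild type. Carriers and non-carriers of the Nras allele therefore overlapped for Rian, and the wild-type library highest in Meg3 was also highest in Rian. Mirg, a microRNA host, had reads in 3 of 6 carriers and 5 of 6 non-carriers, with means of 0.0548 ± 0.0639 RPKM in carriers and 0.153 ± 0.117 RPKM in non-carriers (SD). Neither reached 1 RPKM in 3 libraries, so neither entered the main fit. Rtl1, the paternal gene opposite several of the microRNAs, had reads in 3 of 6 carriers (51, 11 and 2 reads) and 2 of 6 non-carriers (4 and 150 reads).

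The 4 microRNA hairpins with a row were at 0 reads in most libraries of both carriers and non-carriers of the Nras allele. Most of the libraries with reads were non-carriers. Mir127 had reads in Tet2 replicates 2 and 3 (35 and 34 reads), and Mir433 in Tet2 replicate 3 (47) and wild-type replicate 1 (74). The miR-136 hairpin had reads in wild-type replicates 2 and 3 (37 and 58). Mir1188 had 16 reads in Nras replicate 3, 43 in Tet2 replicate 3 and 90 in wild-type replicate 3. The first 3 were thus at 0 reads in all 6 carriers, and each was also at 0 in 4 of 6 non-carriers. These rows were looked up after the Meg3 values were seen and get no test. How many of all genes show such a pattern was not counted. They are reads of total RNA over the hairpin, not mature microRNA levels, and 3 of the hairpins lie opposite an exon of Rtl1.

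**Figure D3:**
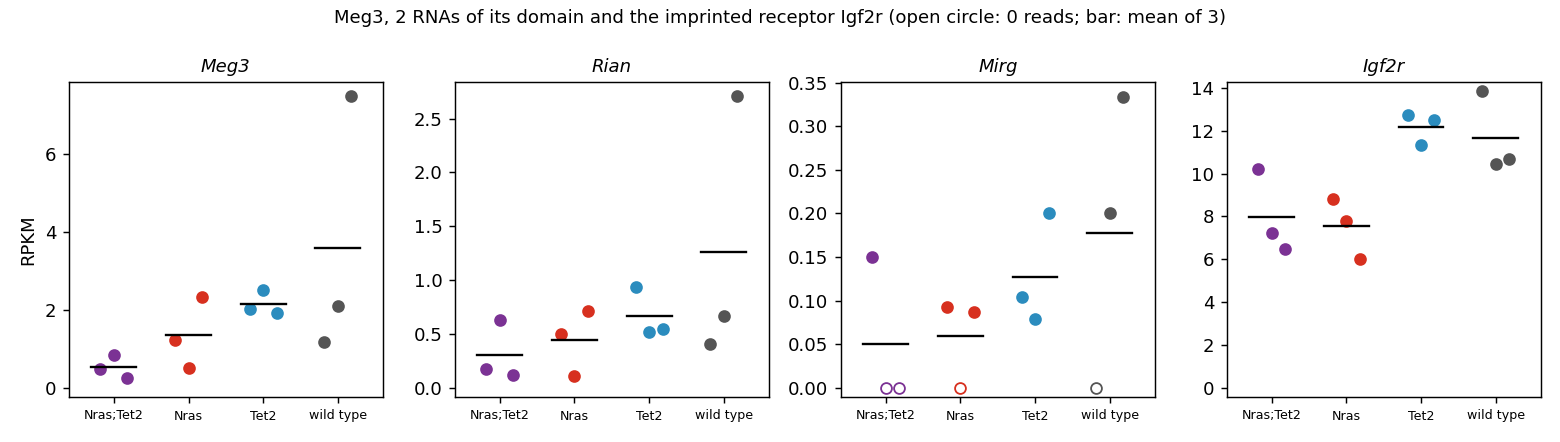
RPKM of Meg3, of Rian and Mirg from the same domain, and of the imprinted receptor Igf2r in each library, by genotype, on linear axes from 0. Open points are libraries at 0 reads and bars are means of 3 libraries. Double mutants have the lowest mean for Meg3, Rian and Mirg, and the 6 Nras carriers lie at or below 10.2 RPKM for Igf2r.

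Dlk1 (ENSMUSG00000040856, chromosome 12, 109452823 to 109463336, plus strand), a membrane protein related to Notch ligands, was close to the detection limit. Double mutants held 0, 49 and 0 reads, Nras mutants 54, 0 and 45, Tet2 mutants 35, 10 and 53, and wild type 0, 122 and 0. Only Tet2 mutants had reads in all 3 libraries, and all groups overlapped. The log2 difference for the Nras allele was -1.19 (exact permutation p = 0.654) and for the Tet2 allele 0.61 (exact permutation p = 0.913). No difference was detected, and the counts of 0 limit what can be seen. Over the 7 libraries with Dlk1 reads, Pearson's r with Meg3 was -0.22 (permutation p = 0.590) and Spearman's rho -0.43 (permutation p = 0.354). Without the 2 libraries farthest from the median of Meg3, r was -0.64. Over all 12 libraries, the set planned, r was 0.36 (permutation p = 0.248). Leaving out the 2 farthest of those 12 gave an r of 0.71 (permutation p = 0.0216) and a rho of 0.44 (permutation p = 0.211).

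Peg3 (ENSMUSG00000002265, chromosome 7, 6703892 to 6730431, minus strand), a zinc finger protein also called Pw1 that marks self-renewing cells in several adult tissues, had reads in 11 of 12 libraries. Double mutants held 81, 554 and 33 reads, Nras mutants 190, 0 and 75, Tet2 mutants 472, 218 and 36, and wild type 293, 235 and 132. Nras mutants had the lowest mean, 0.161 ± 0.186 RPKM, against 0.531 ± 0.309 RPKM in wild type (SD, n = 3 each), and the groups overlapped. Across the Nras allele carriers averaged 0.283 ± 0.344 RPKM and non-carriers 0.491 ± 0.303 RPKM (SD, n = 6 each). The exact permutation p for that allele was 0.195, and for the Tet2 allele it was 0.641.

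Plagl1 (ENSMUSG00000019817, chromosome 10, 13060504 to 13131694, plus strand), a zinc finger transcription factor that restrains proliferation and acts on other imprinted genes, was the scarcest member, with reads in 5 of 12 libraries. Double mutants held 22, 85 and 0 reads, Nras mutants 0, 0 and 47, Tet2 mutants 0, 18 and 0, and wild type 0, 28 and 0. No group was clear of another. The exact permutation p was 0.394 for the Nras allele and 0.697 for the Tet2 allele. No difference was detected, and the 7 libraries at 0 limit what can be seen.

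Ndn (ENSMUSG00000033585, chromosome 7, 62346569 to 62350262, plus strand), which encodes necdin, a growth suppressor and p53 target that in mouse HSCs favours quiescence, varied widely within genotypes. It was at 10.5, 7.54 and 6.26 RPKM in double mutants and 17.8, 22.7 and 8.93 RPKM in Nras mutants. It was at 24.0, 7.98 and 10.6 RPKM in Tet2 mutants and 0.121, 11.7 and 10.3 RPKM in wild type. All groups overlapped, and wild-type replicate 1, with 4 reads, lay far below the other 11 libraries, which held 301 to 1345 reads. That 1 library set the direction of several differences. Nras mutants differed from wild type by 2.63 on the log2 scale (interval -0.51 to 5.78, adjusted p = 0.870 by limma), and by 0.49 without it. Double mutants differed by 1.68 (interval -1.47 to 4.82, adjusted p = 0.842), and by -0.47 without it. Tet2 mutants differed by 2.35 (interval -0.79 to 5.50, adjusted p = 1.0), and by 0.21 without it. Across the Nras allele carriers averaged 12.3 ± 6.53 RPKM and non-carriers 10.8 ± 7.70 RPKM (SD, n = 6 each; exact permutation p = 0.615).

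Grb10 (ENSMUSG00000020176, chromosome 11, 11930508 to 12038683, minus strand), an adaptor protein that binds the insulin and Igf1 receptors and restrains their signal, was the steadiest member. It was at 10.9, 9.14 and 10.2 RPKM in double mutants and 7.995, 9.43 and 9.22 RPKM in Nras mutants. Tet2 mutants had 8.83, 10.5 and 10.6 RPKM and wild type 10.6, 10.7 and 12.1 RPKM. All Nras and all Tet2 libraries were below all wild-type libraries, though the Tet2 group's margin was small, with its highest at 10.58 and the lowest of wild type at 10.64. Nras mutants averaged 8.88 ± 0.775 RPKM and wild type 11.1 ± 0.845 RPKM (SD, n = 3 each), 1.25-fold lower. The limma log2 difference was -0.33 with an interval of -0.63 to -0.03, an unadjusted p of 0.0364 and an adjusted p of 0.870. Tet2 mutants differed from wild type by -0.16 (interval -0.46 to 0.14) and double mutants by -0.14 (interval -0.45 to 0.16), with adjusted p of 1.0 and 0.858. The Nras allele's difference was -0.16 (exact permutation p = 0.117), and the Tet2 allele's was 0.01 (exact permutation p = 0.952), whose sign turned under median centring and under voom.

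**Figure D4:**
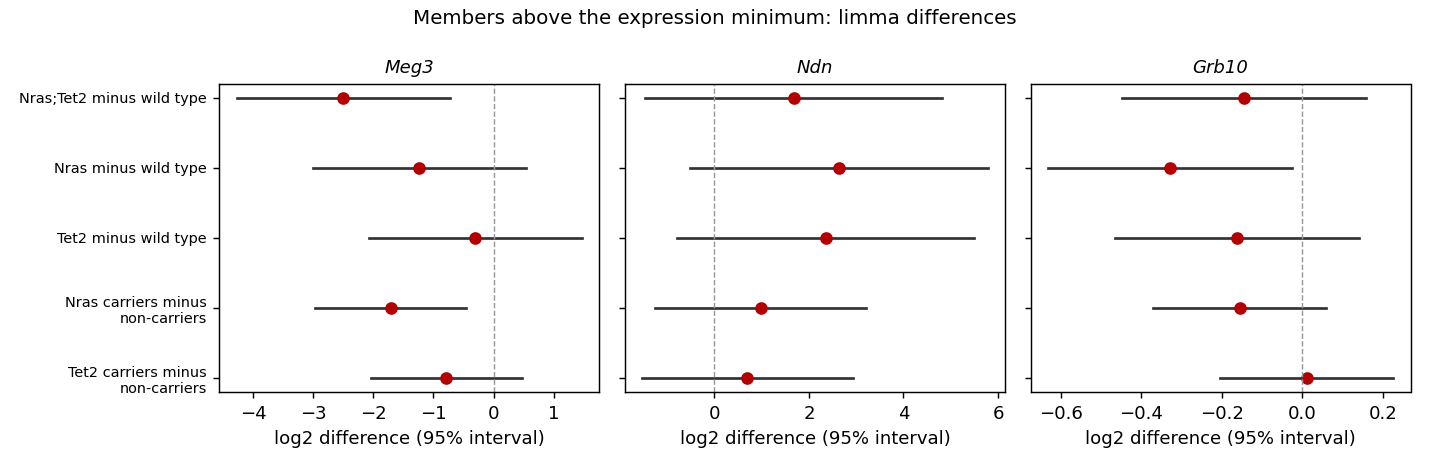
Log2 differences (points) with 95% intervals (lines) from limma for Meg3, Ndn and Grb10, the 3 members above the RPKM minimum, in 5 comparisons, with each panel on its own x axis. The intervals for Meg3 in double mutants minus wild type and in Nras carriers minus non-carriers, and for Grb10 in Nras mutants minus wild type, lie below 0, but no adjusted p was under 0.05.

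Counted over the members, none passed the adjusted threshold of 0.05 in any of the 8 comparisons. The main limma fit tested 3 of the 8 members, and its background of called genes was itself low. It called 0.00646% of 15478 genes for each mutant against wild type and for double against Tet2 mutants, 0.0% for double against Nras mutants and 0.0129% for the interaction. For the Nras allele it called 0.0323% and for the Tet2 allele 0.0%. The fit without a minimum on RPKM, which held all 8, also called 0 members. It called 0.00539% of 18546 genes where the main fit called 0.00646%, 0.0108% for the interaction and 0.027% for the Nras allele. Its unadjusted p was under 0.05 for H19 and Meg3 in double mutants against wild type (2 of 8, where 6.24% of all genes were) and for H19 and Grb10 in Nras mutants against wild type (2 of 8, against 5.25%). It was so for H19, Igf2 and Meg3 in double against Tet2 mutants (3 of 8, against 5.45%) and for H19 and Meg3 across the Nras allele (2 of 8, against 6.97%). It was under 0.05 for 0 of 8 members in Tet2 mutants against wild type (3.54% of all genes), in double against Nras mutants (4.07%), in the interaction (3.5%) and across the Tet2 allele (3.84%).

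The members whose groups did not overlap were counted as well. Double mutants were below wild type for H19 and Meg3, 2 of 8 members, where 5.04% of all genes were. Nras mutants were below wild type for H19 and Grb10, 2 of 8, against 4.3% of all genes. Tet2 mutants were below wild type for Grb10 alone, 1 of 8, against 3.69%. Double mutants were below Tet2 mutants for H19, Igf2 and Meg3, 3 of 8, against 6.4%. Double and Nras mutants overlapped for all 8 members, where 4.03% of all genes were lower and 3.95% higher without overlap. No member was higher without overlap, against 5.58% of all genes in double mutants, 4.76% in Nras mutants and 5.14% in Tet2 mutants over wild type, and 5.55% in double over Tet2 mutants. An exact test of 3 against 3 libraries cannot go below a p of 0.1. In the exact permutation tests of 6 against 6, 16 in all, H19 and Meg3 had an unadjusted p under 0.05 for the Nras allele, both lower in carriers, where 3.63% of all genes were lower and 4.0% higher at that threshold. For the Tet2 allele the p was under 0.05 for 0 of 8 members, where 1.84% of all genes were lower and 2.39% higher. Each comparison with wild type used the same 3 wild-type libraries, so their values are not independent.

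Over the 8 members, the median log2 difference for the Nras allele was -1.45, with 6 below 0 and 2 above, beside a median of -0.02 over all 18546 genes, 52.2% of which were below 0. For double mutants against wild type the members' median was -0.77, with 6 below 0 (all genes 0.01, 48.8% below 0). For the Tet2 allele it was 0.65, with 2 below 0 (all genes 0.02, 47.2% below 0). Members at 0 reads have large log2 differences set by the prior, so these medians describe order more than size.

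Other imprinted genes showed no called change. Of 60 listed genes, 46 were in the table and 34 passed the minimum, and limma called 0 higher and 0 lower for the Nras allele, with 2 at an unadjusted p under 0.05, where 7.24% of all tested genes were. There 24 of the 34 log2 differences were negative, with a median of -0.15 beside -0.01 over all tested genes. The 3 with the smallest p were Igf2r (above), Cdkn1c, a cyclin-dependent kinase inhibitor, at -0.80 ± 0.36, and Osbpl5, a lipid transfer protein, at -0.89 ± 0.41 (SE). Cdkn1c was at 5.04 ± 2.62 RPKM in carriers and 7.81 ± 1.86 RPKM in non-carriers (SD, n = 6 each), with an unadjusted p of 0.0494 and an adjusted p of 0.689. For double mutants against wild type the list also held 0 calls and 4 genes at an unadjusted p under 0.05, against 6.42% of all tested genes, led by Igf2r at -0.57, Peg12 at 0.72 and Impact at 0.56 (adjusted p of 0.754, 0.760 and 0.767). For the Tet2 allele it held 0 calls and 2 genes at an unadjusted p under 0.05, against 3.81% of all tested genes. These were Airn, the noncoding RNA that silences Igf2r on the paternal chromosome, at 1.29 ± 0.39 (SE), and Kcnq1ot1, the silencing RNA of the Cdkn1c domain, at 0.27 ± 0.09 (SE), with an adjusted p of 0.963 for both. Airn runs antisense within Igf2r, and their reads may not be told apart. Airn averaged 2.79 ± 0.282 RPKM for double mutants, 1.03 ± 0.347 for Nras mutants, 3.43 ± 0.689 for Tet2 mutants and 1.90 ± 1.12 for wild type (SD, n = 3 each).

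Genes of insulin and IGF signalling likewise gave 0 calls among 16 tested of 27 listed, with 3 at an unadjusted p under 0.05 for the Nras allele, where 7.24% of all tested genes were. Besides Igf2r these were Pik3r1, the regulatory subunit of PI3 kinase, and the ligand Igf1. Pik3r1 was at 29.1 to 34.9 RPKM in carriers and 35.3 to 47.1 RPKM in non-carriers, which did not overlap, with a log2 difference of -0.31 ± 0.09 (SE) and an adjusted p of 0.452. Igf1 was at 0 to 0.487 RPKM in carriers and 0.460 to 1.56 RPKM in non-carriers, which overlapped, with a log2 difference of -3.44 ± 1.51 (SE) and an adjusted p of 0.678. Of this list 12 of 16 differences were negative, with a median of -0.06 beside -0.01 over all tested genes, 48.9% of which were positive. The genes that maintain imprints and modify cytosine gave 0 calls and 0 unadjusted p under 0.05 among 18 tested of 21 listed. The smallest p for the Nras allele belonged to the DNA methyltransferase Dnmt3a (-0.19 ± 0.10), the imprint-protecting zinc finger protein Zfp57 (0.64 ± 0.37) and the maintenance methyltransferase Dnmt1 (0.16 ± 0.10, all SE). Among Notch receptors and ligands, the family related to Dlk1, 4 of 12 listed were tested and 0 called, with the receptor Notch1 at -0.44 ± 0.20 (SE, adjusted p = 0.678).

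For each member above the RPKM minimum, the 3 tested genes with the most similar log2 profile over the 12 libraries were taken. The genes most like Meg3 were Ttll12 (Pearson's r = 0.88), Impa2 (0.86) and Lipt2 (0.85). Those most like Ndn were Batf2, Smagp and Prkcdbp, with r of 0.98, 0.98 and 0.97, against 0.76, 0.72 and 0.74 without wild-type replicate 1, where each of the 3 was at 0 RPKM. Those most like Grb10 were Pbld2, Ccdc55 and Miip, each with an r of 0.86. These correlations share the same 12 libraries and their depths, were the highest of 15478 genes, and are descriptions only.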

How the data were processed

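Per the labels' protocols, total RNA of sorted HSCs was depleted of ribosomal and mitochondrial RNA and made into libraries with a stranded kit. The submitters' processing notes name CASAVA 1.8.2, TopHat2, edgeR and mm10, without role or order. Whether reads were counted by strand is not given in the sources used here. The authors deposited 1 table of log2 RPKM for 12 libraries, recorded here as an other unit because its headers are numbers.

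Every deposited value fitted a whole read count with a prior averaging 0.25 reads (100% of 18546 genes, tolerance 0.001 reads), which gave the reads and the floor of 3 reads. In 71.1% of 17264 genes the length behind the RPKM was within 2% of the summed lengths of all annotated transcripts (GENCODE M21) and in 28.3% of the exon union, so levels between genes were rescaled. Coordinates are GENCODE's for mm10.

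Limma 3.58.1 in R 4.3.3 was fitted to the log2 RPKM of the 15478 genes with at least 1 RPKM in 3 libraries, with 1 mean per genotype, a variance trend and Benjamini-Hochberg adjustment over all genes tested, at a threshold of 0.05. The fit was tested on simulated data. Allele effects compare the mean of 2 genotypes with that of the other 2, and exact permutation tests used Python 3.11.15 with numpy 2.4.6. Intervals and floors of single libraries cover counting error only.

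The members, lists and tests were chosen with earlier results of these data known. The text names all members, for each member above the minimum the 3 genes of most similar profile, and in each list the genes past the threshold or else the 3 of smallest p. Alternatives added after seeing the values were a minimum of 10 reads in 3 libraries, voom with that minimum, and sex, read from Xist and Y-linked genes, as a covariate. The correlations of pairs were planned over all 12 libraries. Limiting them to libraries with reads of H19, or of Dlk1, was not part of that plan. Mest was not analysed here.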

Additional observations from a re-analysis of the deposited data

How the results depend on the processing

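In the 8 comparisons, 0 members were called under each alternative run. All 8 members were tested with no minimum on RPKM, also with sex as a covariate, and with the minimum of 10 reads, also with voom. The other alternatives tested only Meg3, Ndn and Grb10, so H19, Igf2, Dlk1, Peg3 and Plagl1 could not be called there. These were log2(RPKM + 0.5), quantile normalization, median centring, only the groups compared, no variance trend, voom, the replicate block, sex as a covariate, and each library left out. Only the groups compared covered pairs of genotypes, not the interaction or the allele effects. Over all genes, the Nras allele's count of calls was 5, and it was 1 under quantile normalization, 8 under median centring, 20 under voom and 2 to 17 with 1 library left out. The number of members with a permutation p under 0.05 for the Nras allele was 2 to 3 with 1 library left out, and 0 throughout for the Tet2 allele. Libraries of the same number in different genotypes correlated only weakly in their deviations from genotype means (r of -0.125 to 0.136). Weak correlation cannot settle whether the numbers pair them. The numbers went with sex: replicate 1 was male and replicate 2 female in each genotype, and replicate 3 was male only in Tet2 mutants. With the replicate block, 0 of the 3 members tested were called in any comparison. The permutation p within numbers was 0.00926 for H19, the smallest of 216 arrangements, and 0.037 for Meg3.

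Directions that turned were of small or unsteady differences, and the cause was not tested. With the replicates left out in turn, the difference of Meg3 in Tet2 mutants against wild type ran from -0.89 to 0.45. That of Ndn ran from -0.47 to 2.80 in double mutants against wild type, -0.0939 to 1.54 for the Nras allele and -0.37 to 1.26 for the Tet2 allele, and that of Grb10 for the Tet2 allele from -0.0262 to 0.0538. The permutation differences ran from -0.11 to 1.40 for Ndn and the Nras allele, and for the Tet2 allele from -0.42 to 1.08 for Ndn, -0.19 to 1.63 for Dlk1, -0.31 to 1.84 for Peg3 and -0.0516 to 0.0684 for Grb10. With wild-type replicate 1 and Nras replicate 2 both left out, Ndn gave -0.47 in double mutants against wild type, -0.24 (permutation -0.32) for the Nras allele and -0.23 for the Tet2 allele, and Dlk1 gave -1.39 for the Tet2 allele. Dlk1 gave -0.0313 there with log2(RPKM + 0.5). Grb10 gave -0.0074 for the Tet2 allele under median centring, -0.0275 under voom and -0.0293 under voom with at least 10 reads. Over all 12 libraries, with those at 0 reads, Pearson's r was 0.54 for H19 with Igf2 (permutation p = 0.0723) and 0.36 for Meg3 with Dlk1 (permutation p = 0.248). With genotype means subtracted it was 0.66 (permutation p = 0.0176) and 0.35 (permutation p = 0.262). Over the libraries with H19 reads and those with Dlk1 reads the values were negative.

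H19 and Meg3, with a permutation p under 0.05 for the Nras allele, had adjusted limma p of 0.120 to 0.316 and 0.341 to 0.555 over the fits with all members. H19, Igf2, Dlk1, Peg3 and Plagl1 lay under 1 RPKM in most libraries, where depth and the many counts of 0 limit what can be seen.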
